A study of Mus musculus with 2 samples.

Results

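The 49 genes described here build the actin cytoskeleton and the podosome, and were taken from a fixed list of gene names, with older names allowed. All 49 had features on the array, 88 in number, and 47 of the 49 were measured, among 16022 genes measured in all. A feature is a probe sequence printed on the array, and it counted as measured where its signal was well above background on both arrays. For 48 genes the name on the array matched, and the features of Actg1 were found by their transcript accession. The rule used no measured value, although the list was chosen with earlier results of these data known.

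RNA came from RAW 264.7, a mouse macrophage-like cell line that can be driven toward osteoclasts, the cells that resorb bone. One culture was a control kept at ground level, and the other, labelled RCCS, was loaded for 24 h into a rotary cell culture system, which models microgravity by rotation. Stimulation with RANKL, the cytokine that drives osteoclast formation, lasted 24 h at 80 ng/ml. The protocol text is shared by both samples and does not settle whether RANKL was also added to the control, so each value below is RCCS against control and nothing more. Both cultures were of the same cell line, and no genetic change is named for either.

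Actin filaments grow when nucleators, of which the Arp2/3 complex and the formins are the best known, start new filaments from actin monomers. Capping, severing and monomer-binding proteins set how fast filaments turn over, while crosslinkers, tropomyosins and myosins shape them into bundles that carry tension. Macrophages and osteoclasts use this machinery to build podosomes, which are small contacts with the substrate. A podosome has a core of branched actin made by Arp2/3 and WASP, and around it lies a ring of adhesion plaque proteins such as talin, vinculin and paxillin. In osteoclasts podosomes pack into the belt that seals off the bone being resorbed.

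Each culture was measured on 1 array, so every difference below lacks a replicate check, and no test between the cultures was possible. Both arrays were on the same slide and were scanned together. Of 41174 features, the software called 57.5% well above background for the control and 60.6% for RCCS. Signals are the processed intensities as deposited. The log2 ratio is RCCS minus control after each array was scaled to its own 75th percentile, which was 849 for the control and 966 for RCCS. A raw signal can therefore be higher in RCCS for a gene whose log2 ratio is below 0. The error given is a 95% half-width built on the software's own error for each spot, and it does not cover differences between cultures. Macrophage markers gave signals well above background on both arrays in 8 of 9 cases, and the ninth, Mrc1, was not well above background on either.

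The medians of the adhesion plaque, podosome kinase and scaffold, actin and myosin roles were above 0 in RCCS against control, as they were in all 14 alternative settings of the processing. The medians of the nucleation, crosslinking and capping roles lay just below 0. They were 0.08, 0.10 and 0.04 above the median of all measured genes, in that order. Those 3 medians turned above 0 in 5 of the 14. Across the 47 measured genes the log2 ratios ran from -0.43 for Tpm3 to 0.83 for Actn1, with a median of 0.08. Over all measured genes the median was -0.13, so the list lay 0.21 above it. In 25 of the 47 genes the log2 ratio was above 0, which is 53.2%, against 38.2% of all measured genes. In 35 of the 47 it was above the median of all genes.

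At least 1.5-fold higher in RCCS were 5 of 47 genes, which is 10.6%, against 9.74% of all measured genes, so under this scaling the count of higher genes was near the background. With quantile normalization or loess on signal it was 10 of 47, a larger share than the 10.9% and 12.3% of all genes. With spike-in scaling it was 14 of 47, also a larger share than the 18.7% of all genes. The 5 genes under the main scaling were Actn1, Zyx, Myh9, Ptk2b and Myo1f. No gene of the list was at least 1.5-fold lower, where 14.9% of all measured genes were. Among the 7374 genes whose brighter array read 1000 or more, the shares were 8.23% for 1.5-fold higher and 16.8% for 1.5-fold lower. At 2-fold no gene of the list passed in either direction, against 3.88% of all measured genes higher and 3.78% lower. The 1.5-fold cut was chosen because earlier results of these data held no 2-fold difference in the list. The list was also narrower than the whole array: the SD of its log2 ratios was 0.34, against 0.61 over all measured genes. A change in the share of cells of a type and a change in RNA per cell cannot be told apart in such bulk RNA. Counting only log2 ratios that exceeded their spot error, 16 genes (34.0%) lay above 0, against 15.6% of all measured genes, and 4 genes (8.51%) below 0, against 27.4%.

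**Figure D1:**
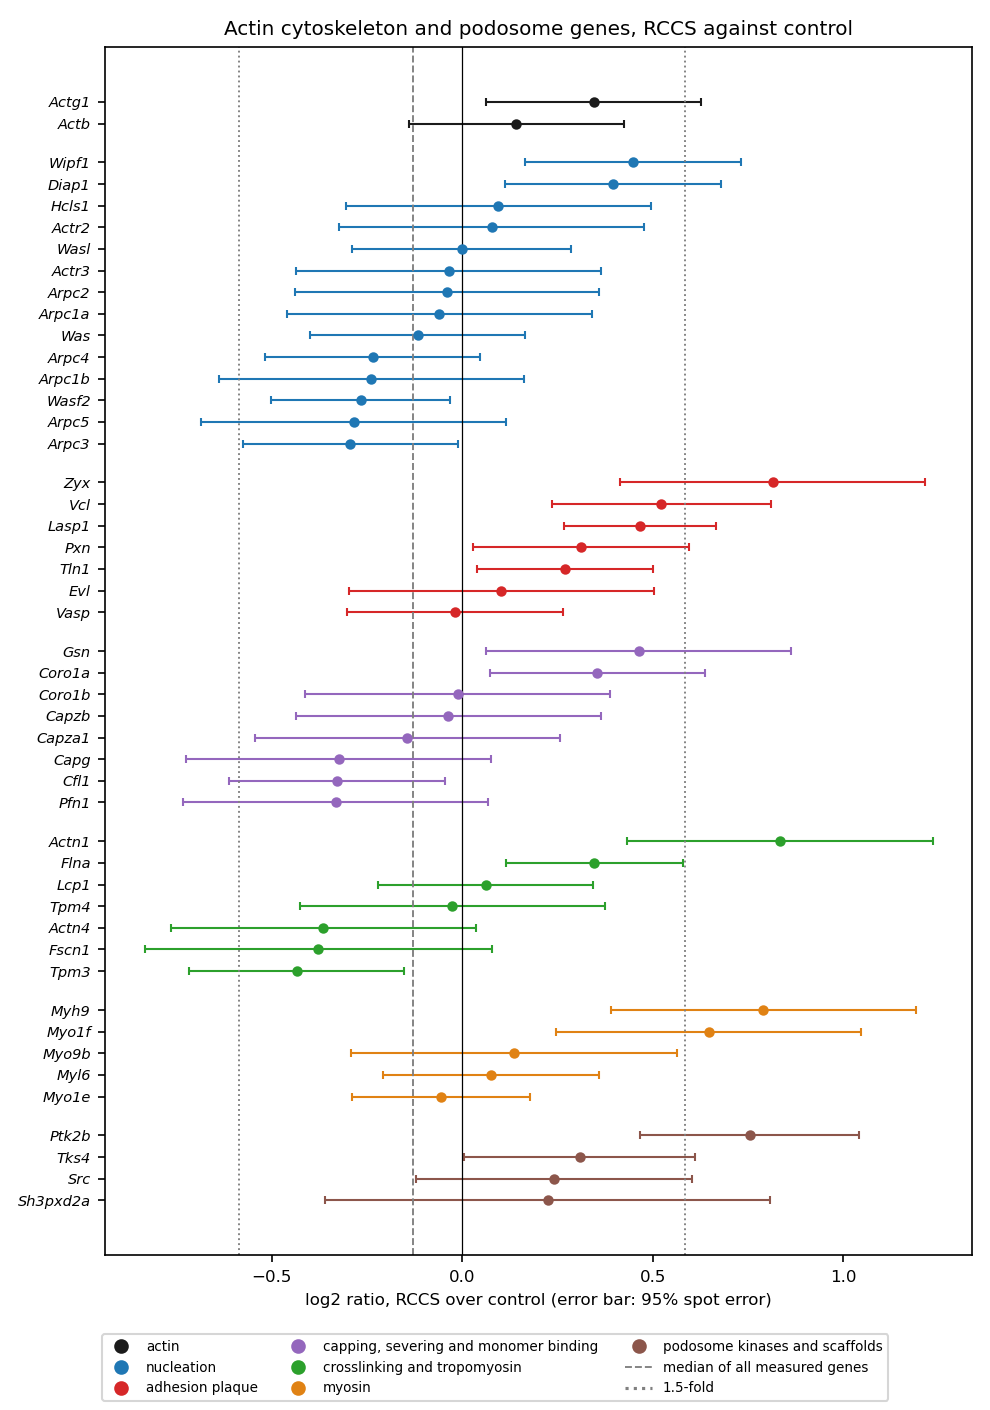
Log2 ratio of RCCS over control for the 47 measured genes, grouped and coloured by role, with 1 array per culture. Bars are 95% half-widths from the spot error, the dashed line is the median of all measured genes at -0.13, and the dotted lines mark 1.5-fold. The adhesion plaque genes and the podosome kinases and scaffolds all lie to the right of the dashed line, and no gene passes the dotted line on the left.

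The adhesion plaque joins integrins to actin. Above 0 were 6 of its 7 measured genes, against 38.2% of all measured genes, with a median log2 ratio of 0.31. Zyx encodes zyxin, a LIM protein that gathers on actin bundles under tension. Its signal was 2242 in the control and 4485 in RCCS, a log2 ratio of 0.81 with a half-width of 0.40. Vcl, which encodes vinculin, the link from talin to actin, read 403 and 673, a log2 ratio of 0.52 with a half-width of 0.29. Both of its features were higher in RCCS, at 0.47 and 0.58.

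Lasp1 encodes a LIM and SH3 protein of podosomes and adhesions. It averaged 4006 in the control and 7143 in RCCS, a log2 ratio of 0.47 with a half-width of 0.20, and its 4 measured features ran from 0.21 to 0.75. Pxn, for the adhesion scaffold paxillin, had a log2 ratio of 0.31 with a half-width of 0.28. Its 3 features gave 0.54, 0.30 and 0.09, and the one at 0.30 was dim, at 34.3 and 48.1. Tln1, for talin 1, which binds integrin tails, had a log2 ratio of 0.27. The 3 features of Tln1 lay between 0.19 and 0.35. Each of these 5 genes exceeded its spot error above 0. The Ena/VASP genes, whose proteins speed the growth of filament tips, lay near 0: Evl was at 0.10 and Vasp at -0.02, both within their spot error.

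All 4 genes of the podosome kinases and scaffolds were above 0, against 38.2% of all measured genes, with a median of 0.27. Ptk2b encodes PYK2, the adhesion kinase that osteoclast podosomes use. Its signal was 526 in the control and 1142 in RCCS, a log2 ratio of 0.75 with a half-width of 0.29. Its brighter feature read 886 and 2016, a log2 ratio of 1.0, and its dimmer one 166 and 268, a log2 ratio of 0.51, so they share the direction but not the size. Src, the kinase without which mouse osteoclasts do not resorb bone, had a log2 ratio of 0.24 with a half-width of 0.36.

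One feature of Src was printed 10 times. Its signals averaged 189 ± 4.42 (SD over 10 spots) in the control and 294 ± 12.5 in RCCS, and the log2 ratios of the spots ran from 0.31 to 0.53. These are spots of the same RNA, so their spread does not cover differences between cultures. The second feature of Src was dim, at 47.2 and 54.9, and gave 0.03. Tks4 (Sh3pxd2b) and Sh3pxd2a encode scaffolds that Src phosphorylates in podosomes. Tks4 read 809 and 1353, a log2 ratio of 0.31 with a half-width of 0.30, while Sh3pxd2a was dim, at 43.4 and 57.6, with 0.22 and a half-width of 0.58. The value of Tks4 rested on a brighter feature at 0.58 and a dimmer one at 0.04.

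Of the 5 myosin genes, 4 were above 0, against 38.2% of all measured genes, and the median log2 ratio was 0.14. Myh9 encodes the heavy chain of non-muscle myosin IIA, the main contractile motor of these cells. Its signal was 15624 in the control and 30719 in RCCS, a log2 ratio of 0.79 with a half-width of 0.40. A second Myh9 feature, at 27.4 and 22.8, was well above background in the control alone and was not used. With that dim feature included the gene value was 0.17. Myl6, the essential light chain that pairs with it, lay at 0.08, with 2 features at 0.03 and 0.12.

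Myo1f and Myo1e encode the 2 long-tailed class I myosins, which tether actin to membranes. Myo1f read 3238 and 5767, a log2 ratio of 0.65 with a half-width of 0.40. Myo1e averaged 1668 and 2213, with a log2 ratio of -0.06 and a half-width of 0.23. The brightest of 3 Myo1e features gave 0.28 and the dimmest -0.30. Myo9b, an unconventional myosin gene, was the only gene of the list with features more than 1 apart. Its bright feature read 4397 and 8212, a log2 ratio of 0.72, and its dim feature read 34.4 and 28.8, a log2 ratio of -0.44. The mean of 0.14 therefore describes neither feature.

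Both cytoplasmic actins were above 0. Actg1, gamma-actin, averaged 43030 in the control and 63019 in RCCS, a log2 ratio of 0.34 with a half-width of 0.28. Actb, beta-actin, averaged 11132 and 14172, a log2 ratio of 0.14 with a half-width of 0.28, which includes 0. One Actb feature was printed 10 times, and its log2 ratio was 0.11 ± 0.03 (SD over 10 spots). The other Actb feature, at 0.18, is placed by the array on chromosome X, whereas the gene is on chromosome 5. The coding sequences of both actins are nearly the same, so a feature may also bind the other transcript.

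The crosslinkers and tropomyosins were split. Actn1, alpha-actinin 1, read 768 in the control and 1557 in RCCS, a log2 ratio of 0.83 with a half-width of 0.40. Actn4, alpha-actinin 4, read 24663 and 21784, a log2 ratio of -0.36 with a half-width of 0.40. The paralogs thus lay on opposite sides of 0, although the half-width of Actn4 includes 0. Flna, for filamin A, which crosslinks actin into networks, had a log2 ratio of 0.35 with a half-width of 0.23, and its 3 measured features ran from -0.01 to 0.56. Lcp1, the leukocyte plastin that bundles filaments, was near 0, at 0.06.

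Tpm3 and Tpm4 encode tropomyosins, which coat filaments and govern myosin access. Tpm3 was the lowest gene of the list: it averaged 69020 and 62266, a log2 ratio of -0.43 with a half-width of 0.28, and its features gave -0.56 and -0.31. Tpm4 read 34189 and 38197 and lay at -0.03. Fscn1, for the filopodial bundler fascin, was dim, at 100.02 and 87.6, with -0.38 and a half-width of 0.46. Tpm3 and Fscn1 stayed below 0 in all 14 alternative settings, and Actn4 in 13 of 14. Fscn1 and Actn4 have 1 feature each, so settings that only choose or combine features could not change their values.

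Nucleation genes had a median log2 ratio of -0.05, with 4 of 14 measured genes above 0, against 38.2% of all measured genes. The Arp2/3 complex, whose 8 subunit genes here all had a value, formed a tight group from -0.29 to 0.08 with a median of -0.15. Only Actr2 was above 0, at 0.08. Against the median of all measured genes the complex was not lower as a group. Above that median were 4 of its 8 genes, and the group median minus it was -0.02. The alternative subunits Arpc1a and Arpc1b read 8022 and 8749 (log2 ratio -0.06) and 139159 and 134166 (-0.24). Arpc3 averaged 33713 in the control and 31388 in RCCS, a log2 ratio of -0.29, and its features gave -0.32 and -0.27. Arpc3 was also the only subunit gene past its spot error below 0. The direction of the complex depends on scaling: its median was between -0.16 and 0.17 over 14 alternatives and turned above 0 in 4 of them. The difference between the adhesion plaque median and the Arp2/3 median was 0.46 and stayed above 0, between 0.28 and 0.68, in all 14. It was smaller with quantile normalization, at 0.29, and with loess on signal, at 0.31.

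The activators upstream of Arp2/3 had differing values. Wipf1, which encodes WIP, the partner that stabilises WASP, averaged 3847 and 5786, a log2 ratio of 0.45 with a half-width of 0.28, and its features gave 0.23 and 0.66. Was, for WASP itself, averaged 3615 and 3782, with -0.12 and a half-width of 0.28. Wasl, for N-WASP, averaged 301 and 332 with a value of -0.00 that is the mean of features at 0.28 and -0.28. Wasf2, for WAVE2, which drives lamellipodia, had -0.27, but its brightest feature gave 0.07 and its dimmest -0.82. Diap1 (Diaph1), a formin that makes unbranched filaments, averaged 1762 and 2791, a log2 ratio of 0.40 with a half-width of 0.28. Hcls1, the blood-cell relative of cortactin, read 21473 and 26070 and lay at 0.09.

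Capping, severing and monomer-binding genes had a median of -0.09, and 2 of 8 were above 0, against 38.2% of all measured genes. Above the median of all measured genes were 4 of the 8. Gsn encodes gelsolin, a severing and capping protein that mouse osteoclasts need for podosomes. It read 25047 in the control and 39270 in RCCS, a log2 ratio of 0.46 with a half-width of 0.40. Coro1a, the coronin of blood cells, averaged 44841 and 65331, a log2 ratio of 0.35 with a half-width of 0.28, with features at 0.34 and 0.37. Coro1b read 4679 and 5277 and lay at -0.01.

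On the lower side, Pfn1, for the monomer-binding profilin 1, and Cfl1, for the severing protein cofilin 1, both had -0.33. Capg, the macrophage capping protein, had -0.32. Of these 3 only Cfl1 exceeded its spot error, with features at -0.36 and -0.30. Their direction depends on scaling too, since Pfn1 and Capg turned above 0 in 3 of 14 alternatives and Cfl1 in 2. The capping protein subunits Capza1 and Capzb lay at -0.14 and -0.04, and the array places the Capza1 feature on chromosome 1, whereas the gene is on chromosome 3.

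Cttn and Enah were not measured. Cttn encodes cortactin, which binds the Arp2/3 branch point. Its features read 8.88 and 22.9 in the control and 5.03 and 33.5 in RCCS, and only the RCCS signal of the brighter one was well above background. The log2 ratio of that feature was 0.36, with a standard error of 0.43 from the spot error, so its direction is not settled. The 3 features of Enah, the Ena/VASP gene Mena, read between 4.46 and 20.5 on the 2 arrays, and none was well above background.

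Many genes of the list are among the brightest on the array, and over all genes the log2 ratio was lower at higher signal. Above a mean signal of 30000 the median over 588 genes was -0.39, and below 1000 it was -0.08 over 9007 genes. Its 16 genes above 30000 had a median of -0.04, and 15 of them were above the median of the genes in that range. Its 17 genes between 1000 and 10000 had a median of 0.27, against -0.15 over 5335 genes, and 16 of them were above it. Set against genes of like signal, the list was 0.31 to 0.42 higher in each of the 4 ranges. With loess scaling on signal, 43 of the 47 genes were above the median of all genes. The part of this slope in the low values of Pfn1, Cfl1, Capg and the Arp2/3 subunits was not tested.

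**Figure D2:**
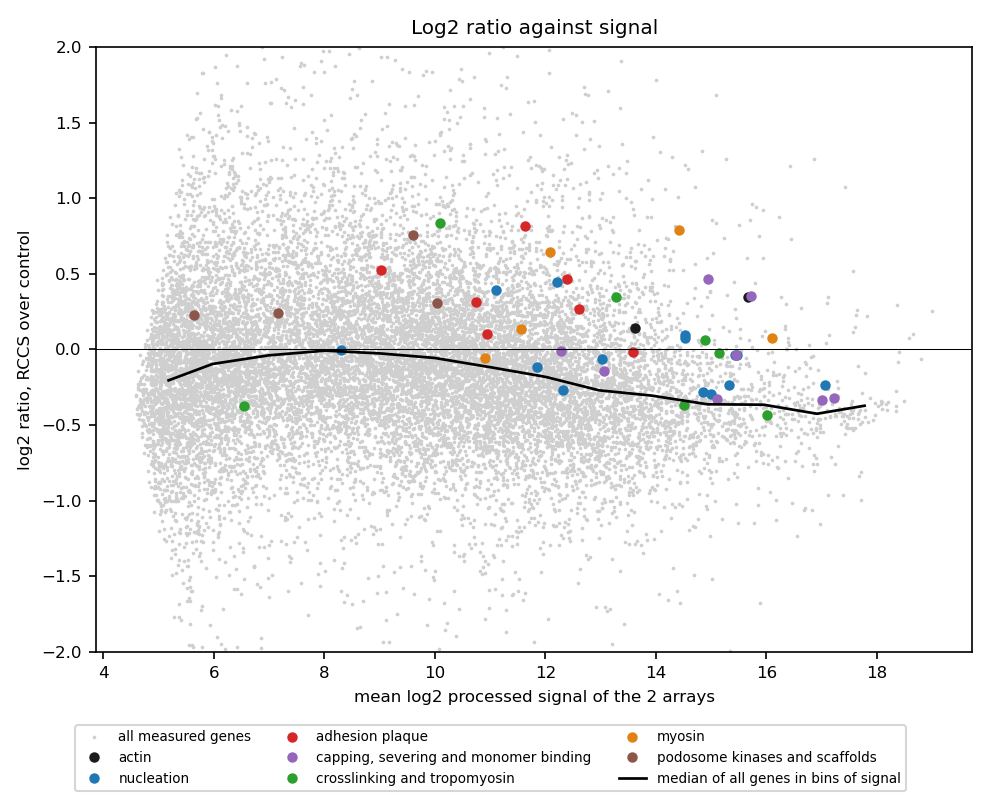
Log2 ratio of RCCS over control against the mean log2 processed signal of the 2 arrays, for all measured genes in grey and the actin genes coloured by role; 196 genes beyond a log2 ratio of 2 in either direction are not shown. The black line, the median of all genes in bins of signal, falls toward the right, and most coloured points lie above it, those above a signal of 30000 included.

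Paralogs with like functions were compared within the same RNA, which removes any single scaling factor. Of 8 pairs with a value for both genes, 2 differed by more than their spot error. Actn1 exceeded Actn4 by 1.20 on the log2 scale, with a half-width of 0.57, and by 0.78 to 1.20 over the 14 alternatives. Each of the 2 genes has 1 feature, so settings that only choose or combine features could not change that difference. Myo1e minus Myo1f was -0.70 with a half-width of 0.46, and -0.83 to -0.37 over the 14 alternatives, the smallest with the brightest feature of each gene, which is within the half-width. For the other 6 the difference was within its half-width: Actb minus Actg1 was -0.20 ± 0.40, Coro1a minus Coro1b 0.37 ± 0.49 and Tpm3 minus Tpm4 -0.41 ± 0.49. Likewise Arpc1a minus Arpc1b was 0.18 ± 0.57, Was minus Wasl -0.12 ± 0.40 and Sh3pxd2a minus Tks4 -0.08 ± 0.66, and intervals this wide do not show that such pairs behave alike. No value could be given for Cttn against Hcls1.

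Several features of a gene give a second look at the same RNA. In the 25 genes with more than 1 measured feature, the range between features had a median of 0.29, and in 7 it was over 0.5. The brightest feature had a higher log2 ratio than the dimmest in 21 of the 25 genes, with a median difference of 0.15. Features on both sides of 0 were found at the bright and dim end of 7 genes. For Vcl, Tln1, Actg1, Coro1a, Cfl1, Arpc3 and Arpc4 the features were less than 0.2 apart, while the single values of Flna, Wasf2, Wasl, Myo1e, Myo9b, Tks4 and Lasp1 average features that differ by over 0.5.

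**Figure D3:**
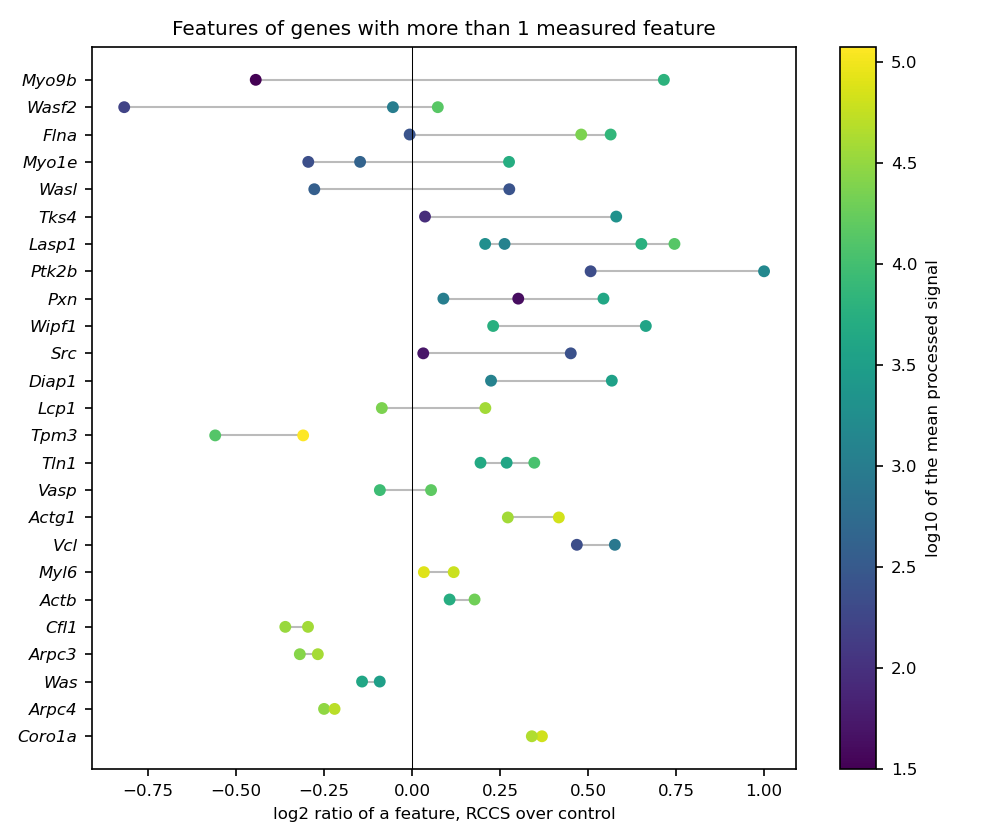
Log2 ratio of RCCS over control for each measured feature of the 25 genes with more than 1, ordered by the range within a gene, with colour giving the log10 of the mean processed signal. Dim features, in dark colours, lie at the low end of the 2 widest ranges, Myo9b and Wasf2, and the bright features of Coro1a and Arpc4 nearly coincide.

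Many actin genes are known targets of the serum response factor SRF, whose coactivators MKL1 and MKL2 are held back by free actin monomers, and SRF binds the CArG box. The promoters of genes in this list were searched for that motif because it offers a feature of sequence the list did not use. Windows from 250 bases before to 50 bases after the start were taken from RefSeq on GRCm38.p6. The motif was read as CC and GG on either side of 6 bases that are each A or T, which covers both strands. Of 42 genes with a window, 5 held it, or 11.9%, against 1.81% of 27025 genes. The stretches around the 5 boxes are shown 5′ to 3′ on the strand of the gene, box in capitals, from the highest log2 ratio to the lowest.
Vcl: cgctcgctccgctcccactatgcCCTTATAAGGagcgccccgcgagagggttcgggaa
Actg1: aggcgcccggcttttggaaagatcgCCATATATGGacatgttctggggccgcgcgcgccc
Myl6: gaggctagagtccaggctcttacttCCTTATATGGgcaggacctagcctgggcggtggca
Myo1e: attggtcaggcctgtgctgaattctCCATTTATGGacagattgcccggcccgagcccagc
Arpc4: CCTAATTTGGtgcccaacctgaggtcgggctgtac
The Vcl stretch is chr14:20929148-20929205 on the plus strand, with the box starting 227 bases before the gene start, and the Actg1 stretch is chr11:120348551-120348610 on the minus strand, with the box 90 bases before it. Those of Myl6 at chr10:128493025-128493084 on the minus strand, Myo1e at chr9:70207293-70207352 on the plus strand and Arpc4 at chr6:113377863-113377897 on the plus strand hold the box 50, 32 and 250 bases before the start. The 5 genes did not share a direction: Vcl was at 0.52, Actg1 at 0.34, Myl6 at 0.08, Myo1e at -0.06 and Arpc4 at -0.24. Their median was 0.08, against -0.01 in the 36 measured genes whose window held no box. Of the 5 genes at least 1.5-fold higher, Actn1, Zyx, Myh9 and Myo1f had a window without these letters, and Ptk2b was not among the genes with a window. A match in letters is a description and not a binding site. The transcript of Srf itself read 539 and 620, a log2 ratio of 0.01, while Mkl1 read 2321 and 3749, a log2 ratio of 0.51, and Mkl2 read 123 and 183, a log2 ratio of 0.39. Elk4, another partner of SRF, was dim, at 81.7 and 50.7, with -0.88.

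Further genes of the pathway were taken from other lists. Among 33 other actin-binding genes, 6 were at least 1.5-fold higher and 3 lower, against 9.74% and 14.9% of all measured genes. Marcks, whose product ties actin to the membrane, read 37.7 in the control and 253 in RCCS, a log2 ratio of 2.56. Pdlim7, a LIM protein of actin bundles, read 626 and 1938, and its 4 features ran from 1.36 to 1.51. Plek, for the leukocyte protein pleckstrin, read 6266 and 18295, with features at 1.35 and 1.36. All 3 exceeded every gene of the main list in log2 ratio.

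Among 18 other nucleation genes, 3 were at least 1.5-fold higher and 3 lower, against 9.74% and 14.9% of all measured genes. The formin gene Fmnl3 read 2523 and 6140 (log2 ratio 1.10), Pstpip1 read 4912 and 10299 (0.88), and its relative Pstpip2 read 1394 and 821 (-0.95). Both of the latter encode F-BAR proteins, and they lay in opposite directions.

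The 13 other myosins had a median of 0.28. At least 1.5-fold higher were 5, against 9.74% of all measured genes, and 0 were lower, against 14.9%. The 5 included the class I genes Myo1d at 0.98, Myo1g at 0.81 and Myo1c at 0.64. The 19 other adhesion plaque genes gave 0 at 1.5-fold in either direction, with a median of -0.02, below that of the 7 in the main list. Tes and Lims1 lay at 0.51 and 0.42, and Fhl3 at -0.41.

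Beside the actin genes, other cytoskeletal and adhesion genes had a wider range. Over all measured genes, 14.9% were at least 1.5-fold lower and 9.74% higher. Of 16 lamin, vimentin and tubulin genes, 11 were at least 1.5-fold lower and 0 higher, with a median of -0.87, while no actin gene of the list was 1.5-fold lower. Lmnb1, for lamin B1, read 14698 and 5120.0, a log2 ratio of -1.71, and Tubb4b, a beta-tubulin gene, read 24753 and 12236, a log2 ratio of -1.20. Of 15 measured integrin subunit genes, the receptors to which the adhesion plaque attaches, 7 were at least 1.5-fold higher and 1 lower, with a median of 0.24. Itgb7 read 1236 and 16522, a log2 ratio of 3.55, Itgb5 read 1536 and 10851, a log2 ratio of 2.63, and Itgal read 275 and 1228, a log2 ratio of 2.05. The value of Itgal is the mean of features at 1.36 and 2.73.

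Of 7 measured osteoclast markers 2 were above 0, against 38.2% of all measured genes, and 5 were below 0. Their median was -0.43, against -0.13 over all measured genes. At least 1.5-fold lower were 3 of them, Dcstamp at -1.62, Ocstamp at -0.95 and Mmp9 at -0.66, and 1 was higher, Ctsk at 1.22. Over all measured genes the shares were 14.9% lower and 9.74% higher. The values of Ocstamp and Mmp9 are means of features that differ. Those of Ocstamp gave -1.39 and -0.51 and those of Mmp9 -1.23 and -0.08, so 1 feature of each fell short of 1.5-fold. Of 6 fibroblast markers, background was clearly passed by 1 in the control and by 3 in RCCS. Among them Dcn, for decorin, read 15.2 and 462 and was well above background in RCCS alone. Col1a2, the only fibroblast marker measured on both arrays, lay in the other direction. It read 68.8 in the control and 57.1 in RCCS, a log2 ratio of -0.55, with features at -0.73 and -0.37. Pdgfra, Thy1 and Lum were not well above background on either array. Of 6 lymphocyte markers, 4 and 5 were well above background, with no signal over 149, and of 4 epithelial markers 3 and 2, with none over 69.6. The part of these markers in the actin gene values was not tested.

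**Figure D4:**
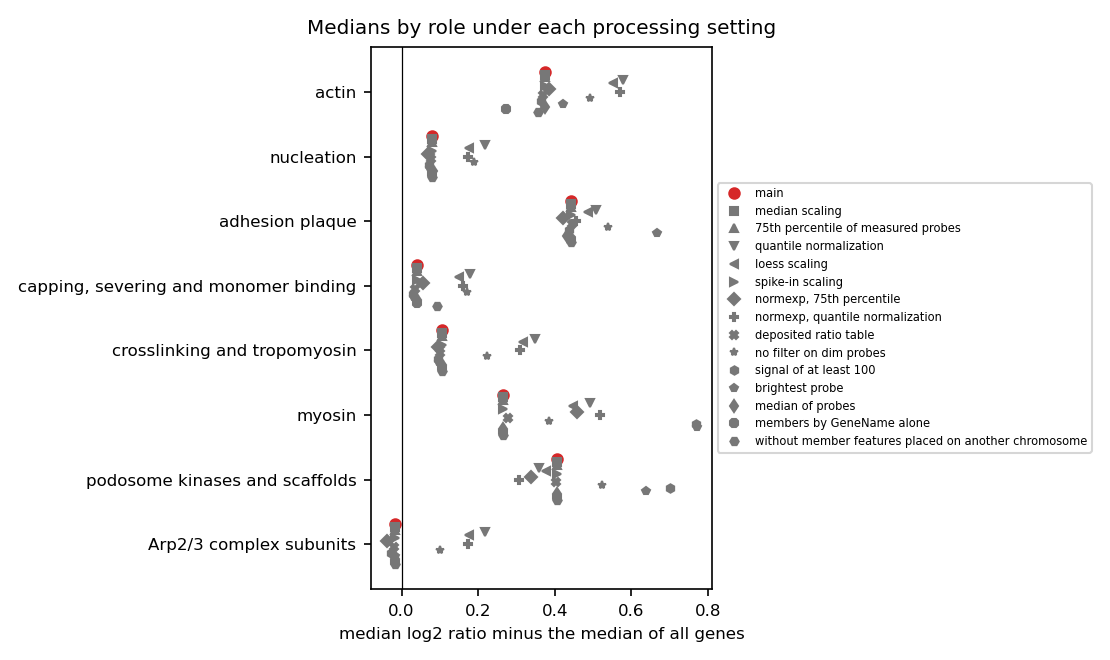
Median log2 ratio of each role minus the median of all genes, under the main setting (red) and 14 alternatives (grey symbols). The actin, adhesion plaque, myosin and podosome kinase and scaffold medians lie above 0 throughout, and the Arp2/3 subunits lie near 0 in the main setting and above 0 under quantile and loess scaling.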

How the data were processed

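RNA of 1 control and 1 RCCS culture was measured in 1 colour on Agilent whole mouse genome arrays. The deposited spot intensities were made by Agilent Feature Extraction 9.5.3.1, per the file headers, with background subtracted, surface trend removed and no scaling between arrays; flags set by that software were used as deposited. The authors' deposited ratio table had its scale unstated, and it matched the processed signal over 849 (control) and 964 (RCCS), with a median of 0.06 in both columns and no direction between arrays. No source used here names the genome build of the array.

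Each processed signal was divided by its array's 75th percentile over 41174 non-control features, and its log2 was the main value. Spots of a feature were averaged without scanner outliers (117 control and 120 RCCS spots, 0 of them in these genes), and 0 were saturated. A feature was measured where at least 50% of its spots were well above background on both arrays, and a gene took the mean of its measured features. The signal of a gene is the mean of its features, so it need not give the gene's log2 ratio exactly. Spot error was taken from the software, and 117 bright features printed 10 times had a median SD of 0.04 in log2 ratio. Precision is limited by the number of arrays, and samples were grouped by the treatment label.

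Members, lists, folds and the named genes were chosen with earlier results of these data known. Named with full values were the 12 largest absolute log2 ratios, paralog pairs, genes with features over 1 apart and unmeasured genes, and in each other list the 3 largest with a signal of at least 100. The other genes, among them those named in the marker, lamin, tubulin and Elk4 sentences, were picked for their role with values in view. Limma 3.58.1 in R 4.3.3 gave normexp, quantile and loess values; the rest used Python 3.11.15. The gene summary was tested on simulated data. Alternatives were 7 other scalings or backgrounds, the deposited table and 5 other filters or summaries of features; leaving out features placed on another chromosome was added after seeing the data. One further gene list is not reported here, and protein sequences were not used here.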

Additional observations from a re-analysis of the deposited data

How the results depend on the processing

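No paired analysis was possible because each group had 1 array, and leaving out a replicate was not possible either. Over 14 alternatives the median of the 47 genes stayed above 0, between 0.07 and 0.35, and above the median of all genes, by 0.19 to 0.34, and 0 genes were 1.5-fold lower. Counts of higher genes depended on scaling. With the 75th percentile of measured features the median was 0.21 and 9 genes were at least 1.5-fold higher, against 13.5% of all genes. With quantile normalization the median was 0.28, the distance to all genes 0.34, 10 genes were 1.5-fold higher against 10.9% of all genes, and 1 passed 2-fold. With loess these were 0.32, 0.32, 10 against 12.3%, and 1, and with normexp and quantile 0.28, 0.31, 10 against 7.41%, and 1. Spike-in scaling, on 8 features with a median of -0.31, gave a median of 0.35, 14 genes at 1.5-fold against 18.7% of all genes, and 4 at 2-fold. In each of these settings the share of the 47 genes that was 1.5-fold higher was larger than the share of all genes. Without the filter on dim features the distance to all genes was 0.32, and with the brightest feature of a gene 1 gene passed 2-fold. The median of all genes moved by 0.14 with the 75th percentile of measured features, 0.13 with loess, 0.27 with the spike-ins and -0.12 with no filter. Relative to that median, 43 of 47 genes were higher with quantile or loess scaling. Actn1, Zyx, Ptk2b and Myo1f were at least 1.5-fold higher in 14 of 14 alternatives, and Myh9 in 13. Actn1, Zyx and Myo1f have 1 feature each, and Myh9 has 1 measured feature. Settings that only choose or combine measured features could therefore not change these 4 values. The medians of nucleation, capping and crosslinking genes turned above 0 in 5 of 14. Of 781 other values, 709 moved by less than their spot error, 72 moved by more and 0 that passed 1.5-fold turned sign. Signals near background limit Sh3pxd2a, Fscn1, Cttn and Enah. The causes of these shifts were not tested.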
